A study of Oryza sativa with 28 samples.

Results

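A total of 1092 stretches of the rice genome were called open in fertile panicles at meiosis and in no other panicle sample of this study. They were found among 82457 union regions, which were made by merging the overlapping ATAC-seq peaks of 8 libraries. A union region was kept when both fertile meiotic libraries had a peak in it and none of the other 6 libraries did. Open thus means called as a peak, and a missing call does not show that a site was closed. The regions were chosen by the peak calls themselves, so their presence in one group is the rule and not a result, and their peak scores are given as a description without a test. They are called FP3-only regions here.

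All samples came from Wuxiang S (WXS), an indica rice line that carries a mutant tms5 locus, so that the fertile and the sterile plants share this allele. Fertile plants, WXS(F), were moved from the paddy field when the panicle was about 1 cm long to a chamber at 22 °C, with 14 h of light, 10 h of darkness and 77% humidity. Sterile plants, WXS(S), stayed in the summer field under the same day length, so fertility and growing conditions cannot be told apart. Young panicles were taken at the meiosis period (P3) and at the uninucleate period (P4), which gave the groups FP3, SP3, FP4 and SP4, with 2 ATAC-seq and 3 RNA-seq libraries each. A panicle holds many tissues, so fewer open cells and less opening per cell cannot be told apart.

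ATAC-seq uses the Tn5 transposase, which cuts DNA where nucleosomes leave it free, and such open sites are where transcription factors mostly bind. In plants they lie mainly just before gene starts, but also within genes and far from them. The tms5 gene encodes an RNase Z that cuts ubiquitin fusion transcripts, and its loss makes pollen formation depend on temperature. During meiosis the pollen mother cells pair and recombine their chromosomes inside the anther, while the tapetum around them feeds the later microspores.

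The peak lists held 56084 to 63796 peaks per library and the RNA-seq libraries 30577833 to 51193158 counts; reads per peak were not part of the lists, so the depth behind a peak is unknown. The 12 meiosis genes and the 9 floral organ genes that were listed as markers all reached at least 1 CPM (counts scaled to the library total after TMM normalization) in every RNA-seq library. Summed over the list, the meiosis genes had 210.7 to 253.3 CPM in FP3 libraries, against 444.4 to 456.1 in SP3, 105.8 to 121.0 in FP4 and 262.9 to 306.4 CPM in SP4 libraries. The floral organ genes summed to 588.8 to 597.9 CPM in FP3 libraries, against 1092.7 to 1352.5 in SP3, 1037.7 to 1089.1 in FP4 and 1137.8 to 1227.9 CPM in SP4 libraries, so that FP3 was the lowest of the groups. The 8 tapetum genes summed to 132.0 to 146.1 CPM in FP3 libraries, against 165.3 to 180.4 in SP3, 405.4 to 426.0 in FP4 and 266.6 to 271.7 CPM in SP4 libraries. The 3 green tissue genes summed to 128.2 to 136.2 CPM in FP3 libraries, against 78.1 to 112.1 in SP3, 681.7 to 783.7 in FP4 and 346.8 to 401.8 CPM in SP4 libraries. The part of these differences in the peak lists was not tested.

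Sequence was at hand for 19 of the 1092 regions, all on chromosome 1, from the sequences supplied with the study for its group-enriched open sites. Shown first are the 4 of them whose linked gene, described further on, differed between groups in RNA level and whose annotation names no UTR. Coordinates are 1-based on MSU7, the letters run 5′ to 3′ on the strand supplied, taken as the forward strand, and each run ends after 300 bases, at the first masked letter or at the end of the supplied site. Capitals mark matches on either strand to GCCGCC (the GCC box of ERF factors), CCGAC (the core of the DRE element), CACGTG (the G-box), TTGAC (the W-box core) and GATAA (a core of GATA factor sites).
chr1:3437139-3437438: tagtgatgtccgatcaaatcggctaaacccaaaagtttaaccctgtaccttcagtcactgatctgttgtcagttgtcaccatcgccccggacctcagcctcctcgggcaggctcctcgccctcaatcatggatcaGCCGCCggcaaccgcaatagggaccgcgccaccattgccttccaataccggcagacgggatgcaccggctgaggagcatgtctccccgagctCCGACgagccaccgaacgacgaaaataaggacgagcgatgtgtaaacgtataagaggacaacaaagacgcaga
chr1:24710107-24710362: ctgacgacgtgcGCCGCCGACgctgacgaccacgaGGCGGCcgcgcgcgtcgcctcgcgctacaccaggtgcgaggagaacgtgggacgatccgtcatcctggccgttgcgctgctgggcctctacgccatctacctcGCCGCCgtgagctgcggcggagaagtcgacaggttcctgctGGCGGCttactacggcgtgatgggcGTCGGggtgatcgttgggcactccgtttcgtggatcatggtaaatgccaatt
chr1:26709499-26709750: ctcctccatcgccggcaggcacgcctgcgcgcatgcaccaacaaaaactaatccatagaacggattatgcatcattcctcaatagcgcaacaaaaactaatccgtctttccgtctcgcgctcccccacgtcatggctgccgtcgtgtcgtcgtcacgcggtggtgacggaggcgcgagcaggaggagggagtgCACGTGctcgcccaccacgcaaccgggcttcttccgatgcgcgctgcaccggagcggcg
chr1:34605681-34605980: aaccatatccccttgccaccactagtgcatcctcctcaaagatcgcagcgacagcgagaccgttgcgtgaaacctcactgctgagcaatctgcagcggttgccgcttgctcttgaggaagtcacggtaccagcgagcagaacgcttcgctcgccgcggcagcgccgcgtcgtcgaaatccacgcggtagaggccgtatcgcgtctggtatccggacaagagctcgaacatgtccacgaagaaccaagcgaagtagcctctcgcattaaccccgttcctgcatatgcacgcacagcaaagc

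The stretch at chr1:3437139-3437438 lies within 2 kb before the start of LOC_Os01g07280, and that at chr1:24710107-24710362 in an exon of LOC_Os01g43260. The stretch at chr1:26709499-26709750 lies in an intron of LOC_Os01g46820, and that at chr1:34605681-34605980 covers exon, intron and the sequence after the end of LOC_Os01g59840, annotated by the study as like beta-glucosidase 3. The exonic stretch had 4 matches to GCCGCC and 2 to CCGAC; at its start the 2 motifs share letters, so that they are not separate matches there. The stretch at LOC_Os01g59840 had no match to any of the 5 motifs, which says only that these letters are not in this window.

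Over the first 190 letters of each sequence, GCCGCC was present in 7 of the 19 FP3-only regions (36.84%), against 189 of 970 other supplied regions (19.48%). TTGAC was present in 6 of the 19 (31.58%) against 20.82% of the other regions. CCGAC was present in 3 (15.79%) against 26.29%, and GATAA likewise in 3 (15.79%) against 22.78%. CACGTG was in none of the 19, which are too few and too selected to set a share, against 6.08% of the others. The match printed above lies past the letters compared. The GC content of the unmasked letters had a median of 54.21% in the 19 regions and 50% in the others, and repeat-masked letters were present in 26.32% and 27.94%. These 19 were selected on chromosome and on enrichment in FP3, so they are not a sample of the 1092. The other supplied regions were not limited to sites enriched in FP3.

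The FP3-only regions were a small part of the open chromatin of fertile meiotic panicles. Both FP3 libraries had a peak in 51227 union regions, of which the 1092 were 2.132%. By the same rule 154 regions were open in SP3 alone (0.34% of 45288), 482 in FP4 alone (0.979% of 49226) and 624 in SP4 alone (1.256% of 49666). A further 35186 regions, 68.686% of those with both FP3 libraries, had peaks in all 8 libraries. These counts rest on peak calls alone. The study compared SP3 with FP3 by read signal instead, and reported more open sites enriched in SP3 than in FP3. FP3 had the longest peak list at each replicate number. Replicate 1 had 59787 peaks in FP3, against 58345 in SP4, 58006 in FP4 and 56084 in SP3. Replicate 2 had 63796 in FP3, against 63434 in SP4, 62486 in FP4 and 57196 in SP3. The FP3 peaks covered the most bases, with 39.232 and 39.652 Mb in the FP3 libraries, against 31.245 to 37.57 Mb in the other 6. The part of this in the number and width of FP3-only regions was not tested. With the same number of highest-scoring peaks kept per library, 923 regions were open in FP3 alone, against 272 in SP3, 439 in FP4 and 462 in SP4. Of these 923, 610 (66.09%) overlapped one of the 1092, which is 55.86% of the 1092.

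Most regions seen in FP3 libraries alone were seen in a single replicate. Of 5690 union regions with peaks in FP3 libraries alone, 1092 (19.192%) had both replicates, 1602 had replicate 1 and 2996 had replicate 2. The matching shares were 8.825% in SP3, 15.138% in FP4 and 17.983% in SP4.

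Just outside the rule stood 1644 regions with both FP3 libraries and 1 other library. The other library was FP4 replicate 2 in 496, SP4 replicate 2 in 313, FP4 replicate 1 in 281, SP3 replicate 1 in 229, SP3 replicate 2 in 182 and SP4 replicate 1 in 143 of them. The peak of that other library had a median score of 61.73, and in 736 regions (44.77%) it was under 60, where the lists begin at 50. The lower FP3 score of these neighbours had a median of 63.14 and their width one of 475 bp, against 59.71 and 459.5 bp within the rule. With all 4 libraries of FP3 and 1 more group and none of the rest, 285 regions were shared with FP4, 114 with SP4 and 100 with SP3.

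The peaks in FP3-only regions were weak ones. The MACS score, −10 times the log10 of the p-value of a peak, had a median of 63.97 in FP3 replicate 1 (50.02 to 192.59) and of 70.91 in FP3 replicate 2 (50.08 to 245.74). The lower score of the pair was under 60 in 559 regions (51.19%) and at least 100 in 45 (4.121%). Replicate 2 scored higher in 657 regions (60.165%). Both replicates covered the same bases well: at least 50% of the width was covered by both in 1035 regions (94.78%), and the median was 83.84%. In 4 regions under 10% of the width was covered by both.

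**Figure D1:**
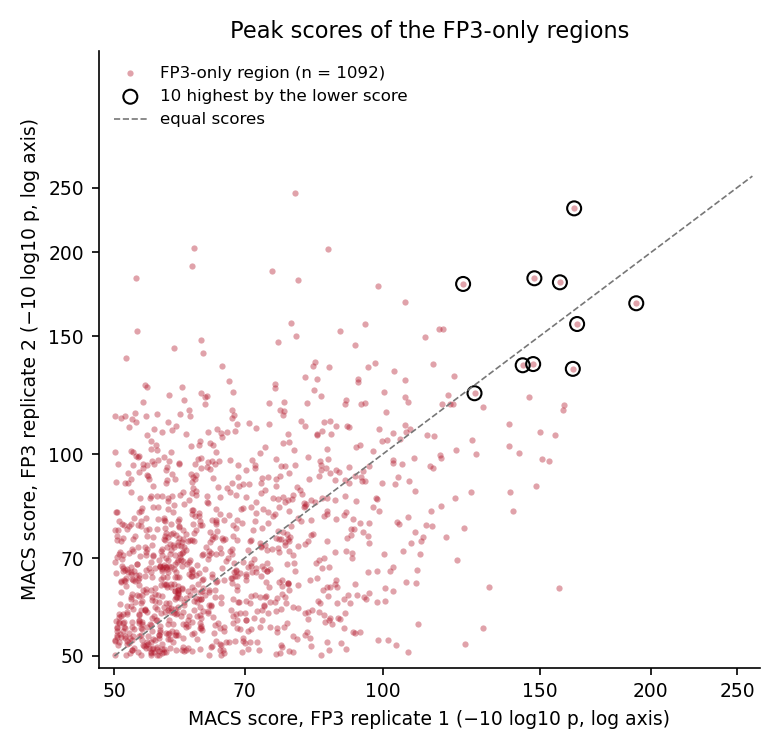
MACS score of each of the 1092 FP3-only regions in FP3 replicate 1 (x) and FP3 replicate 2 (y), both on log axes, with the 10 regions of highest lower score circled and the line of equal scores dashed. Most points lie in the corner near 50, and 45 regions reach 100 in both.

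The share of regions open in 1 group alone fell as the score rose, in every group. Of regions whose lower FP3 score was 50 to 60, 11.763% (559 of 4752) were FP3-only, against 6.68% at 60 to 70, 3.55% at 70 to 80, 1.973% at 80 to 100, 0.432% at 100 to 150 and 0.017% (4 of 24157) from 150 on. At 50 to 60 the share was 2.266% in SP3, 5.634% in FP4 and 7.16% in SP4, and at 100 to 150 it was 0 of 8426 regions in SP3, 0.198% in FP4 and 0.212% in SP4 regions. The FP3 share was the highest of the 4 groups in each class below 150, and from 150 on FP4 had 0.022% (5 regions).

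**Figure D2:**
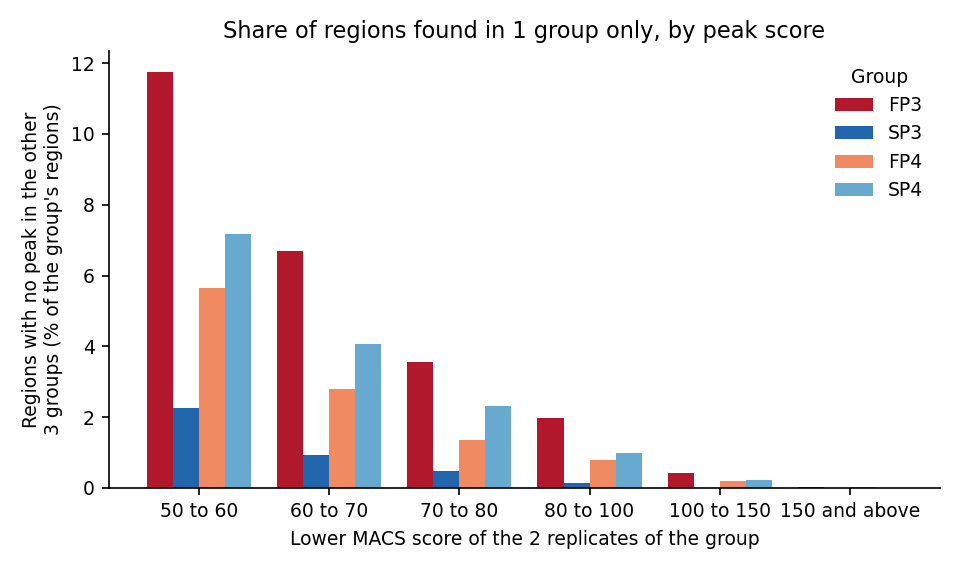
Percentage of the regions with peaks in both replicates of a group that had no peak in the other 3 groups, by the lower score of the 2 replicates, for FP3, SP3, FP4 and SP4. The bars of all groups shrink to the right, and FP3 stands highest in each class below 150.

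Asking for a score of at least 100 in every library left a like number of regions and nearly none of the same ones. The rule then gave 1139 FP3-only regions, of which 45 (3.95%) overlapped one of the 1092. The other regions had weaker peaks in other libraries that this setting removed: 122 of the 1139 (10.71%) lay in union regions with peaks in all 8 libraries. At that setting 101 regions were open in SP3 alone, 290 in FP4 alone and 545 in SP4 alone.

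The 10 regions with the highest lower score were the clearest examples. The first was chr2:28751077-28752749, 1673 bp wide, with scores of 192.59 and 167.98 in the FP3 replicates. It was followed by chr7:24054974-24055757 with 164.03 and 232.74, chr2:31333262-31334023 with 158.1 and 180.52, and chr9:22149551-22150305 with 165.29 and 156.42. These 4 were the regions that reached 150 in both libraries. The fifth, chr1:39433544-39434782, scored 148.01 and 183.04 and lies over exon, intron and the 3′ UTR of LOC_Os01g67860, which the study annotates with carbohydrate metabolism. The rest were chr2:35026177-35026887, chr1:7466183-7466780, chr6:30169714-30170534, chr4:23960355-23960870 and chr2:29069353-29070006, with lower scores of 136.31 down to 123.11. At the other end stood chr8:471236-471561 with 50.02 and 52.82, and chr1:32349101-32349977 with 50.02 and 50.21.

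FP3-only regions were wider by median than the regions open in another group alone. Their median width was 459.5 bp (173 to 2741), against 344 bp in SP3-only, 395 bp in FP4-only and 362 bp in SP4-only regions, and 795 bp in regions with peaks in all 8 libraries. In total they covered 590.95 kb. A width over 1 kb was found in 70 of them (6.41%), against 2 SP3-only (1.299%), 4 FP4-only (0.83%) and 2 SP4-only regions (0.321%). All union regions were wider, with a median of 538 bp and 16.117% over 1 kb. Over all peaks the mean width was 656 and 622 bp in the FP3 libraries, against 546 to 619 bp in the other 6. Among peaks scored 50 to 70 the median width was 353 and 326 bp in the FP3 libraries, against 318 to 356 bp in the other 6. The part of peak width in the width of FP3-only regions was not tested. With 1 FP3 library left, by leaving out replicate 1 or replicate 2, the median width was 342 or 364 bp and 2.32% or 2.42% were over 1 kb, against 275 to 336 bp and 0.05% to 0.32% for the other groups when each was left with 1 library. The share over 1 kb was 13.18% with an overlap of 50% asked for and 18.53% with scores of at least 100 in every library, against at most 2.47% and 4.14% in the other groups at these settings. With scores of at least 100 it was 23.01% over all union regions. At the 50% setting, replicate 1 peaks were counted, and a peak of another group could cover under 50% of them. The widest region was chr4:23120398-23123138 (2741 bp, scores 60.66 and 116.37), then chr2:5628802-5630957 (2156 bp, 103.01 and 132.95) and chr3:31785901-31787946 (2046 bp, 56.29 and 54.22). The others of the 10 widest spanned 1688 to 1880 bp.

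**Figure D3:**
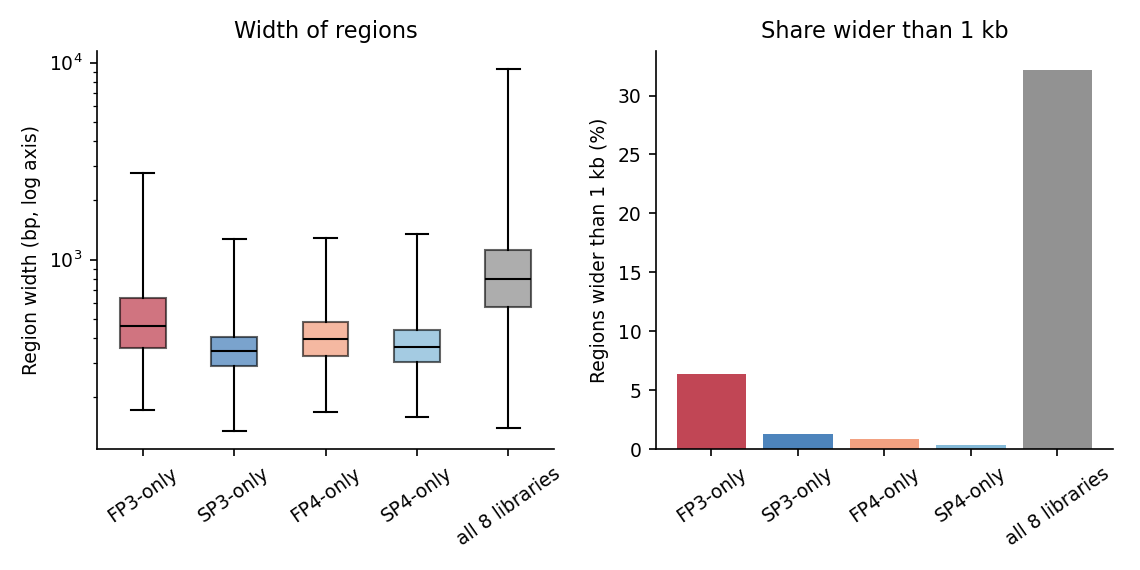
Left, width in bp on a log axis of FP3-only, SP3-only, FP4-only and SP4-only regions and of regions with peaks in all 8 libraries (box: quartiles and median; whiskers: lowest and highest). Right, the percentage wider than 1 kb, which is 6.41% in FP3-only regions, at most 1.299% in the other 3 group-only sets and 32.192% in regions with peaks in all 8 libraries.

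About 1 FP3-only region in 3 lay close to chromatin that was open in every library. Of the 1092, 359 (32.88%) lay within 1 kb of a region with peaks in all 8 libraries, against 29.87% of SP3-only, 26.35% of FP4-only and 23.88% of SP4-only regions and 25.24% of all union regions. With scores of at least 100 in every library the share was 19.93%, against 22.77% of SP3-only, 17.93% of FP4-only and 18.35% of SP4-only regions and 14.54% of all union regions at that setting. The median gap to such a region was 2113.5 bp, and 90 regions (8.242%) were over 10 kb away. Closeness went with width: 57.14% of the 70 regions over 1 kb lay within 1 kb of shared open chromatin, with a median gap of 776 bp, against 20.66% of the 121 regions of at most 300 bp, with a median gap of 3616 bp. Of the 3 widest, the first was 752 bp, the second 37 bp and the third 191 bp from one.

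**Figure D4:**
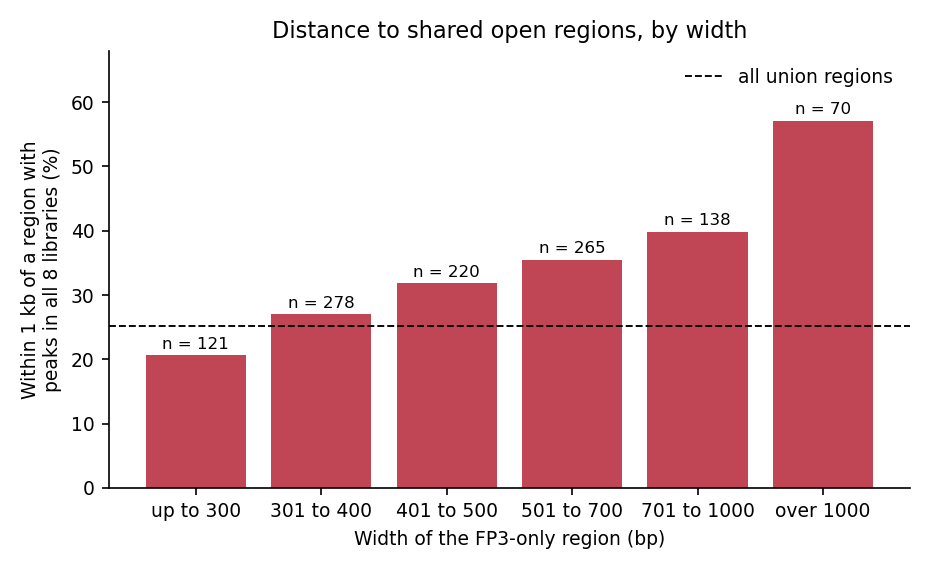
Percentage of FP3-only regions within 1 kb of a region with peaks in all 8 libraries, by width class in bp, with the number of regions above each bar and the value over all union regions (25.24%) dashed. The bars rise from 20.66% in the narrowest class to 57.14% in the widest.

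The regions were spread over all 12 chromosomes. Chromosome 1 had the most (169), then chromosomes 2 (142), 3 (124) and 4 (120), and chromosome 10 had the fewest (48). As a share of the regions with both FP3 libraries they were 1.594% on chromosome 10 and 2.67% on chromosome 4, with the other chromosomes between. Of the 1092, 94 regions (8.608%) lay within 10 kb of another and 18 within 2 kb, and no stretch of 100 kb held more than 4. Whether this is more or less than an even spread gives was not tested. Stretches with 4 were found among others at chr1:5110683-5170089, chr2:25304214-25345394 and chr11:20059429-20106868, the last of which begins with one of the 10 widest regions.

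Which genes the regions touch could be read for a small part of them. Of the 1092, 131 (12%) overlapped a site of the study's list of FP3-enriched open sites. The rest were thus not among the sites that the study listed as enriched in FP3 over SP3 by read signal. Gene assignments of that list were at hand for 48 (4.4%), on chromosomes 1, 2, 10, 11 and 12. These 48 were thus selected on reads in FP3 against SP3 as well. Of them, 24 (50%) touched an exon, 17 (35.42%) an intron, 15 (31.25%) the 2 kb before a gene start and 20 (41.67%) the 2 kb after a gene end, and 6 (12.5%) were intergenic. The other 599 sites of that list touched an exon in 63.61%, an intron in 38.73%, the 2 kb before a start in 38.56% and the 2 kb after an end in 32.72%. A region can touch several of these, so the shares do not add up to the whole.

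Those of the 48 regions that lay in a gene body or the 2 kb before a start were linked to 42 genes. The rest, which were intergenic or touched only the 2 kb after a gene end, had no linked gene. Of the 42 genes, 40 were in the count table. Of the 40, 16 averaged under 1 CPM in every group and 12 averaged at least 10 CPM in every group. The most abundant was LOC_Os01g67860, the gene under the fifth strongest region, with 471.9 CPM in FP3, 439.2 in SP3, 469.5 in FP4 and 879.8 CPM in SP4. It was not called in any comparison (log2 fold change 0.16 against SP3, −0.04 against FP4 and −0.91 against SP4). All its FP3 libraries were below the SP4 libraries (edgeR adjusted p = 4.26e-05), but the difference was under the 2-fold needed for a call. LOC_Os01g07280, LOC_Os10g41900 and LOC_Os11g06990 were among the genes with 0 counts in all FP3 libraries.

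Against sterile meiotic panicles, 2 of the 26 linked genes tested were called higher in FP3 and 1 lower. A call needed a change of more than 1 on the log2 scale in either direction and an adjusted p under 0.05 (edgeR quasi-likelihood test, Benjamini-Hochberg over all genes). Among all 24405 genes tested, 14.8% were called higher and 6.74% lower. With members from peaks of at least 100 in every library, 4 of 18 linked genes tested were called higher and 1 lower, and none of these 5 was among the 3. The median log2 fold change of the 26 linked genes was 0.08 and that of all genes 0.04, and 23 of the 26 stayed within 2-fold.

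LOC_Os01g59840, the gene annotated with beta-glucosidase activity, had 1.963, 2.543 and 1.874 CPM in FP3 libraries, against 0.9034, 0.696 and 0.8453 CPM in SP3 libraries. Every FP3 library was above every SP3 library, and the difference was 1.44 on the log2 scale (SE 0.26, edgeR adjusted p = 0.00541). It had 4.522, 4.557 and 4.479 CPM in FP4 libraries and 3.457, 3.88 and 3.823 CPM in SP4 libraries, above all FP3 libraries, so its RNA was not highest where the region was called open. Its region at chr1:34605666-34606043 scored 70.83 and 90.12 and lay 14031 bp from shared open chromatin. Beta-glucosidases release glucose from glycosides.

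LOC_Os01g06400 had 1.041, 0.9265 and 1.148 CPM in FP3 libraries, against 0.3571, 0.2828 and 0.2926 CPM in SP3 libraries. The groups did not overlap and differed by 1.79 on the log2 scale (SE 0.31, edgeR adjusted p = 0.00466). With 1.237, 1.643 and 1.243 CPM, the SP4 libraries were all above the FP3 libraries, though not called. The region over exon and 5′ UTR of this gene, chr1:3031451-3032843, scored 75.92 and 50.37 and is 1393 bp wide. The same region lies in the 2 kb before the start of LOC_Os01g06390, which was called lower in FP3 against SP4, as given further on. LOC_Os01g46820 was the gene called lower, with 10 counts over the FP3 libraries and 38 over the SP3 libraries (log2 fold change −1.97, SE 0.52, edgeR adjusted p = 0.022). Its log2 fold change stayed between −2.17 and −1.66 under all 10 alternatives, but the call was lost under 8 of them (adjusted p = 0.0204 to 0.195 over the 10), which were DESeq2, no filter on low counts, the replicate block and leaving out SP3 replicate 1, SP3 replicate 2 or any of the FP3 libraries. LOC_Os01g06400 and LOC_Os01g46820 are named because so few were called, after their values were seen.

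**Figure D5:**
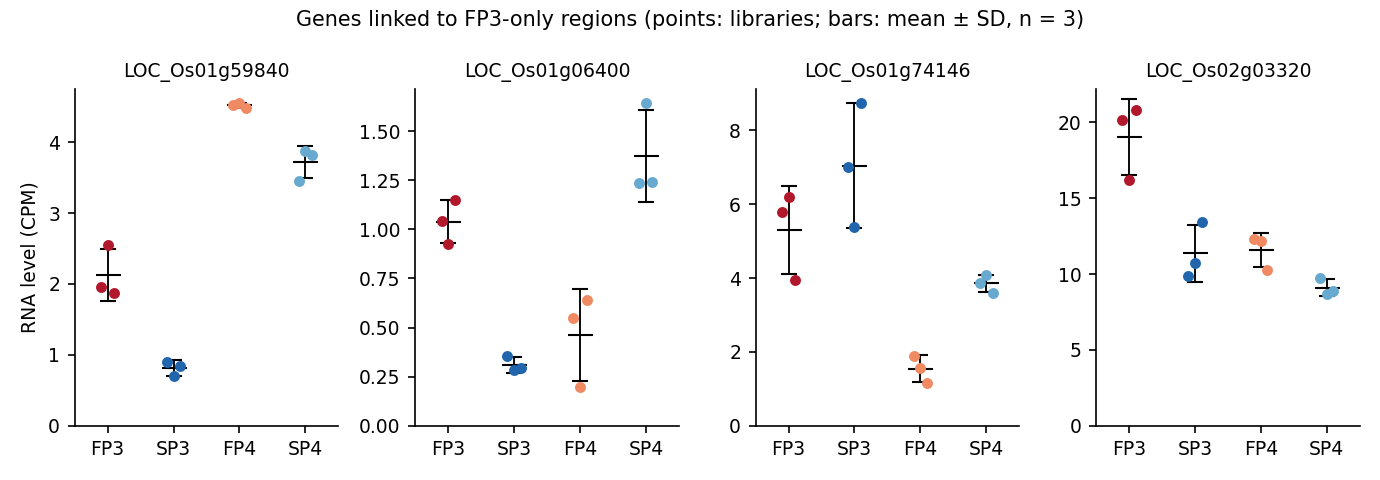
RNA level in CPM of LOC_Os01g59840, LOC_Os01g06400, LOC_Os01g74146 and LOC_Os02g03320, each linked to an FP3-only region, in FP3, SP3, FP4 and SP4 (points: 3 libraries per group; bars: mean ± SD). The vertical scales differ, and LOC_Os02g03320 is the gene of the 4 that is highest in FP3.

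Against the uninucleate fertile panicles, 1 of the 27 linked genes tested was called higher in FP3 and 3 lower, where 6.13% and 12.9% of all 24926 genes were called in these directions. LOC_Os01g74146, with its region chr1:42947871-42948216 in the 2 kb before its start, had 5.788, 6.184 and 3.935 CPM in FP3 libraries, against 1.89, 1.57 and 1.169 CPM in FP4 libraries. All FP3 libraries were above the FP4 libraries, by 1.73 on the log2 scale (SE 0.26, edgeR adjusted p = 0.00184). In SP3 it had 7.017, 5.372 and 8.745 CPM, which overlaps FP3. LOC_Os01g59840 was lower in FP3 by the values above (log2 fold change −1.14, SE 0.16, edgeR adjusted p = 0.00162).

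LOC_Os01g07280 and LOC_Os12g04340 were the others called lower, both at low counts and named after their values were seen. LOC_Os01g07280, whose upstream sequence is printed above, had 0 counts in the FP3 libraries and 36 counts over the FP4 libraries, which is at least 12.6-fold higher in FP4 when 3 counts over the FP3 libraries are taken as the limit (edgeR adjusted p = 0.00422). LOC_Os12g04340 had 39 counts over the FP3 libraries and 134 over the FP4 libraries (log2 fold change −1.92, SE 0.54, edgeR adjusted p = 0.0237), and leaving out FP3 replicate 2, FP3 replicate 3, FP4 replicate 1 or FP4 replicate 2 ended this call (adjusted p = 0.05 to 0.077).

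Against the uninucleate sterile panicles, 1 of the 28 linked genes tested was called higher in FP3 and 4 lower, where 10.3% and 7.39% of all 24130 genes were. LOC_Os02g03320 had 20.15, 16.18 and 20.82 CPM in FP3 libraries, against 9.724, 8.667 and 8.866 CPM in SP4 libraries. The difference was 1.06 on the log2 scale (SE 0.12, edgeR adjusted p = 0.000594). Its FP3 libraries were also above those of SP3, at 9.895, 10.74 and 13.46 CPM, and of FP4, at 12.3, 12.21 and 10.3 CPM, by 0.81 and 0.67 on the log2 scale (edgeR adjusted p = 0.00925 and 0.00528), under the 2-fold needed for a call. Among the linked genes called in any comparison it was thus the one with RNA highest in the group where its region was called open. That region, chr2:1343562-1344192, covers exon, intron and 3′ UTR, scored 51.94 and 78.27, and lies 103 bp from shared open chromatin. The same region lies in the 2 kb before the start of LOC_Os02g03330, whose RNA was lower in FP3 than in SP3 and SP4. LOC_Os02g03330 averaged 14.27 CPM in FP3, 22.97 in SP3, 13.66 in FP4 and 27.74 CPM in SP4. Its log2 fold change was −0.63 against SP3 and −0.97 against SP4 (edgeR adjusted p = 0.0154 and 8.83e-05), under the 2-fold needed for a call.

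The 4 lower genes were LOC_Os01g06390, LOC_Os01g43260, LOC_Os01g46820 and LOC_Os12g04340, which had 4, 43, 10 and 39 counts over the FP3 libraries, against 57, 111, 45 and 109 over the SP4 libraries. All 4 averaged under 1 CPM in both groups, and their log2 fold changes ran from −4.00 to −1.68. Without FP3 replicate 3, the 5 calls against SP4 fell to 2, since the calls of LOC_Os02g03320 (log2 fold change 0.99), LOC_Os01g43260 (adjusted p = 0.0516) and LOC_Os12g04340 (adjusted p = 0.0835) ended. The call of LOC_Os12g04340 was also lost with the replicate block (0.0515) and without FP3 replicate 2 (0.114), SP4 replicate 1 (0.0955) or SP4 replicate 3 (0.102), and that of LOC_Os01g43260 without FP3 replicate 1 (0.0543) or SP4 replicate 2 (0.053). The 3 comparisons share the FP3 libraries.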

How the data were processed

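ATAC-seq peaks of 8 libraries and RNA-seq counts of 12 libraries were analysed; the ChIP-seq samples were not analysed here. The authors aligned ATAC-seq reads to MSU7 with Bowtie2, dropped organelle and multiply aligned reads, called peaks per library with MACS at default settings, and deposited each peak with its score (at least 50). Reads of RNA-seq were aligned with HISAT2, and the deposited counts are StringTie estimates in whole numbers. FPKM values were not used, and 0 columns were left out. Peaks were merged where they shared at least 1 bp. Coordinates are 1-based on MSU7. The members and gene lists were chosen with earlier results of these data known.

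Each pair of groups was fitted on its own 6 libraries with edgeR 4.0.16 (R 4.3.3; filterByExpr, TMM, glmQLFit, glmQLFTest), which was tested on simulated data; CPM values use TMM factors over the 12 libraries. DESeq2 1.42.0 was an alternative. An MSU7 annotation was not used here, so genes come from the region to gene assignments supplied with the study, held in part. Genes were named when called, with a mean of at least 1 CPM over the 6 libraries and no overlap between groups; regions were the 10 of highest lower score and the 10 widest. The log2 fold change is FP3 over the other group. Regions were handled in Python 3.11.15 (numpy 2.4.6, pandas 2.3.3, scipy 1.17.1) and drawn with matplotlib 3.10.9.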

Additional observations from a re-analysis of the deposited data

How the results depend on the processing

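The number of FP3-only regions was 962 with peaks up to 100 bp apart merged, 923 with the same number of peaks per library, 1139 with scores of at least 100 in every library and 1411 with an overlap of 50%. The 1411 were peaks of FP3 replicate 1, of which a peak of another group could cover under 50%. Of them, 1061 (75.19%) overlapped one of the 1092. The number of FP3-only regions also changed with the libraries used. It was 1242 to 4177 when 1 library was left out (2773 without FP3 replicate 2 and 4177 without FP3 replicate 1, where a single FP3 library then decided). A score of at least 100 asked of the FP3 peaks only, chosen after seeing the data, left 45. The share within 1 kb of shared open chromatin (32.88%, Wilson 95% interval 30.15% to 35.72%, counting error only) was 19.93% with scores of at least 100 in every library, 38.2% with an overlap of 50%, 29.73% with merging at 100 bp, and 27.87% to 34.22% when 1 library was left out. The 38.2% is not the same measure, since a peak counted at that setting could itself overlap shared open chromatin. Linked genes called against SP3 numbered 3, and 2 to 4 without 1 library, where 2 of the 3 genes remained except without SP3 replicate 3, where all 3 did; in 4 of these fits LOC_Os12g39800 (0 counts over the FP3 libraries and 29 over the SP3 libraries) was called lower in place of LOC_Os01g46820. They were 5 of 18 tested with members from peaks of at least 100, and 5 of 37 with the 2 kb after the gene end, an alternative chosen after seeing the data. Calls against SP4 numbered 2 to 6 without 1 library and 5 with all, and against FP4 3 to 4, with 4 in all. With DESeq2 they numbered 7 against SP4, 5 against FP4 and 3 against SP3, and with no filter on low counts 6, 4 and 3. DESeq2 added LOC_Os01g74140 and LOC_Os12g42900 against SP4 and LOC_Os12g39800 against FP4. Against SP3 it called LOC_Os12g39800 in place of LOC_Os01g46820. With the replicate number as a block, 2 of 3 calls remained against SP3, 3 of 4 against FP4 and 4 of 5 against SP4; the genes lost were LOC_Os01g46820 (adjusted p = 0.103), LOC_Os01g07280 (0.0613) and LOC_Os12g04340 (0.0515), and the numbers were not found to pair the libraries (correlation of deviations from the group means −0.064 to 0.018). Linking by the nearest transcription start was not run, for want of the annotation used by the files. The number of ATAC-seq reads behind a peak is unknown here. The RNA results rest on those of the 48 regions that had a linked gene, a small part of the 1092.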
